A study of Mus musculus with 12 samples.

Results

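The genes described here are the axon and vessel guidance ligands and receptors of 4 families in primary mouse cortical endothelial cells (ECs): semaphorins with plexins, ephrins with Eph receptors, Slits with Robos, and netrins with Unc5 receptors. The rule that picked them used gene symbols only, and it was set with earlier results of these data known. Of the 21611 genes analysed, 66 matched, 35 ligands and 31 receptors: 29 semaphorins and plexins, 22 ephrins and Ephs, 7 Slits and Robos, and 8 netrins and Unc5 receptors. The low counts of Epha8 and Ntn5 kept both out of the tests, so 64 members were tested.

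mRNA-seq was performed on 12 libraries of cultured ECs, all of wild-type (WT) genotype. Adult cortical ECs treated with MS-275 (10 µM) gave 4 libraries, adult cortical ECs treated with Wnt3a (200 nM in the labels) gave 2, untreated adult cortical ECs (adult control) gave 3, and cells labelled as ECs from embryonic cortex at E13.5 gave 3. The methods give fewer replicates for MS-275 than the 4 libraries in the labels, while a figure legend of the study also gives 4. A replicate is described in the methods as ECs pooled from 1 litter. MS-275 inhibits class I histone deacetylases, and Wnt3a is a ligand that activates canonical Wnt/β-catenin signaling. According to the methods the mice were C57BL/6 J, the adults were males a few months old, the cortex was pooled after removal of the meninges, and the cells were expanded on collagen. The sources do not name a vehicle for the control libraries of mRNA-seq. Each library held 20804279 to 33149580 reads on genes.

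Guidance cues act through families of receptors that steer growing axons and the tips of growing vessels in much the same way. Class 3 semaphorins are secreted and signal through plexins, mostly with neuropilins as coreceptors, and Sema3e binds Plxnd1 directly. Ephrins are bound to the membrane, so ephrin-Eph signaling runs between touching cells and in both directions, and Efnb2 with Ephb4 marks arteries against veins. Slits are secreted ligands of Robo1 and Robo2, and Robo4 is a Robo of endothelium. Netrins signal through Dcc, Neo1 and the Unc5 receptors, of which Unc5b is the vascular one.

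The cell type in the labels was checked against a list of 12 genes of endothelial identity (Pecam1, Cdh5, Kdr and others). Their summed normalized count was 19760 to 36494 in MS-275 libraries, 232510 to 278540 in Wnt3a libraries, 279390 to 376020 in adult control libraries and 917 to 1426 in the libraries labelled E13.5. Cldn5 averaged 1.06, Tie1 4.11, Pecam1 59.4, Cdh5 74.8 and Kdr 765 normalized counts at E13.5. Of the 12 genes, 3 averaged under 10 there and only 1, Kdr, at least 100. All 12 genes were higher in adult control than at E13.5 (median log2 difference 10.18) and lower with MS-275 than in adult control (-4.20). The markers of neurons summed to 509 to 602 in MS-275 libraries, 3.47 to 6.10 in adult control libraries and 8001 to 11354 at E13.5, and those of pericytes and smooth muscle to 554 to 813 in MS-275 libraries, 87.6 to 102 in adult control libraries and 30192 to 49837 at E13.5. All 9 neuron genes were lower in adult control than at E13.5 and 4 were higher with MS-275 than in adult control, with 3 of the 9 without a read in adult control. All 7 tested genes of pericytes and smooth muscle were lower in adult control than at E13.5, and 4 were higher with MS-275. Also lower in adult control than at E13.5 were 7 of 8 neural progenitor genes and 6 of 7 astrocyte genes, with 0 higher. The same held for 5 of 6 tested genes of the oligodendrocyte lineage and 6 of 7 of fibroblasts and meninges. For microglia and macrophages 5 of 6 tested genes were lower and 1 was higher. Of 4 lymphatic genes 2 were higher and 2 lower, and Lyve1 averaged 23157 in adult control and 1.17 at E13.5. The part of these other cells in the results below was not tested, and in bulk RNA fewer cells of a type and less RNA per cell cannot be told apart.

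Some libraries of a group were much closer to each other than to the rest: E13.5 2 and 3, adult control 1 and 2, MS-275 1 and 3, and MS-275 2 and 4. The first principal component of the adult libraries around their group means, which held 52.6% of that variance, divided them into set A (MS-275 1 and 3, Wnt3a 1, control 1 and 2) and set B (MS-275 2 and 4, Wnt3a 2, control 3). These sets were defined from the data and are not groups of the study. The count of all members called is also given below with close pairs averaged into 1 value, which leaves MS-275 with 2 values, and the p-values measure only the spread between these libraries.

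**Figure D1:**
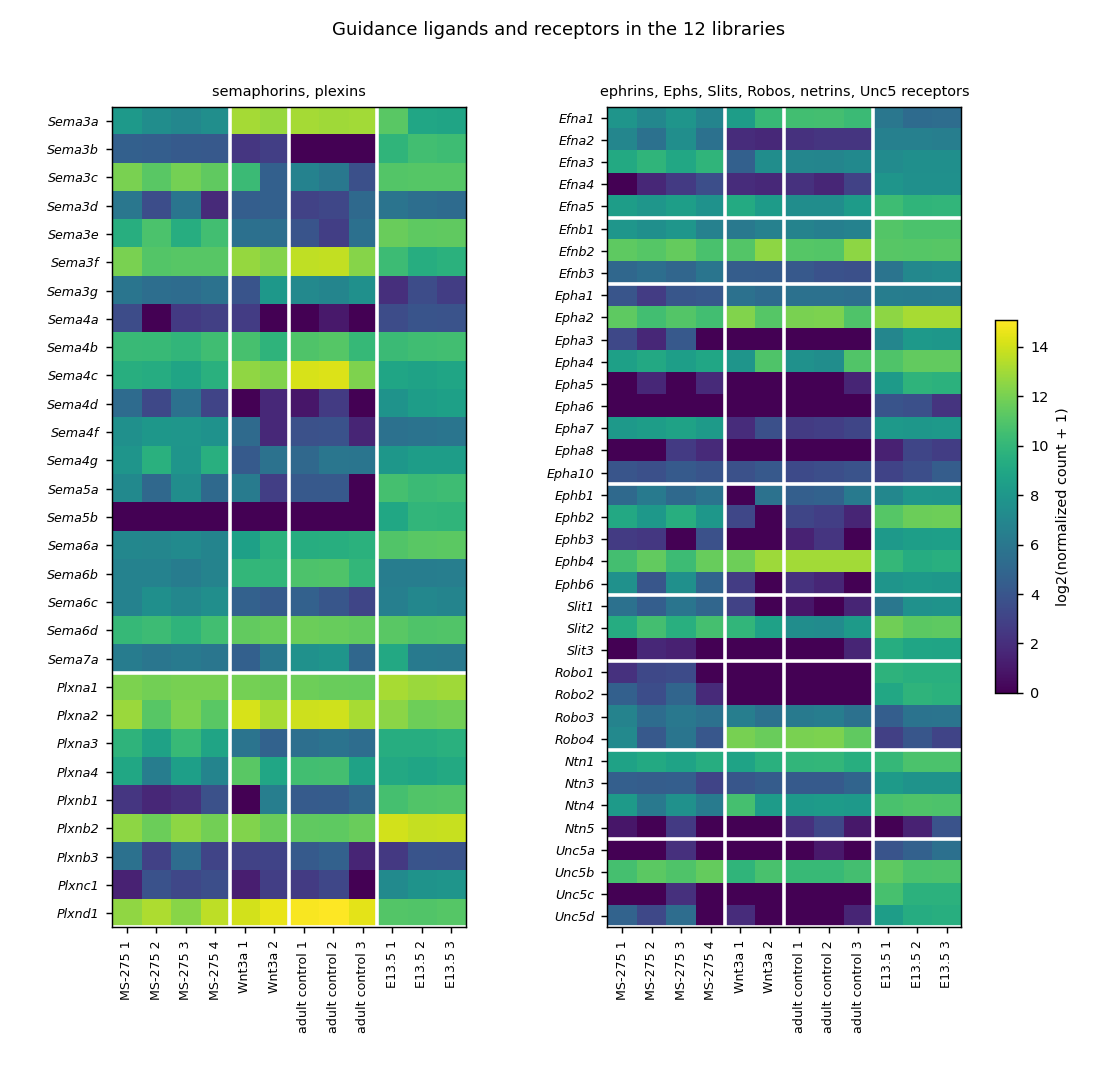
Levels of all 66 members, as log2 of the normalized count plus 1 (color scale), with 1 column for each of the 12 libraries and 1 row for each member; white lines divide the groups and the kinds of ligand or receptor. Rows such as Unc5c, Robo1, Robo2 and Sema5b are dark in all adult libraries and bright at E13.5, and rows such as Plxnd1, Sema4c and Robo4 are brightest in adult control and Wnt3a libraries.

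More members were well expressed at E13.5 than in adult control. A mean normalized count of at least 100 was reached by 32 members in MS-275 libraries, 25 in Wnt3a libraries, 27 in adult control libraries and 50 at E13.5, which was 48.5% of the members with MS-275, 37.9% with Wnt3a, 40.9% in adult control and 75.8% at E13.5. Of all genes this level was reached by 49.3% in MS-275 libraries, 49.0% in Wnt3a libraries, 48.7% in adult control libraries and 54.6% at E13.5. No read was counted in any library of the group for 2 members with MS-275, 12 with Wnt3a and 8 in adult control, and every member had a read at E13.5, while 16.2% of all genes had none with MS-275, 28.6% with Wnt3a, 28.2% in adult control and 17.5% at E13.5. Per kilobase of exon, adult control ECs were led by Plxnd1 (4087 ± 831 normalized counts, SD, n = 3), Sema4c (3145 ± 1869), Sema3f (2015 ± 868) and Ephb4 (1781 ± 4.23). The libraries labelled E13.5, where most endothelial markers were low, were led by Plxnb2 (1994 ± 212 normalized counts per kilobase, SD, n = 3), Epha2 (1700.0 ± 368) and Plxna1 (889.6 ± 87.8). Of these, Plxnb2 and Epha2 lay within the spread of each other. After MS-275 the leading member per kilobase was again Plxnd1 (1140 ± 430 normalized counts, SD, n = 4), followed by Plxnb2 (615 ± 181), Sema3f (531 ± 191), Ephb4 (468 ± 192) and Sema3c (466 ± 126), and the 4 that follow Plxnd1 did not differ beyond their spread. Semaphorins and plexins made up 60.7% to 65.7% of the summed level per kilobase of all members in MS-275 libraries, 60.5% to 74.2% in adult control libraries and 49.3% to 55.5% at E13.5.

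Comparison of adult control with the libraries labelled E13.5, which the study set up as adult against embryonic cortical ECs, gave 11 members higher and 41 lower in adult control ECs, while 12 did not pass (limma, adjusted p under 0.05). Over all 15452 genes tested, 19.5% were called higher and 32.8% lower, so the share of members called lower, 64.1%, lay well above that of all genes, and the share called higher, 17.2%, lay close to it. The libraries of both groups did not overlap for 56 members (87.5%), 11 higher and 45 lower. This held for 61.9% of all genes, 23.9% higher and 38.0% lower. The median log2 difference of the members was -2.69 (-2.65 with genes without an adult read set to their bound), against -0.20 for all genes. By family, 8 semaphorins and plexins were higher and 16 lower of 29, 2 ephrins and Ephs were higher and 14 lower of 21, 1 of 7 Slits and Robos was higher and 5 were lower, and 6 of 7 netrins and Unc5 receptors were lower and 0 higher. Of all calls, 37.3% were higher. Quantile scaling, which moved the median of all genes by 0.34, made this 55.7%, and the scaling of edgeR, which moved it by 0.17, made it 45.3%, while scaling to the same total moved the median by -0.13 and gave 30.6%. Among the members, 15 were higher and 35 lower with quantile scaling, and 9 were higher and 37 lower with close pairs averaged, when Epha2, Ntn1, Plxna2, Sema4f and Sema6d were among the calls lost. The share of all genes called under these alternatives was not taken, so these counts have no such share beside them.

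MS-275 treatment of adult ECs, which asks what these genes do when class I histone deacetylases are inhibited, gave 25 members higher and 14 lower than in adult control ECs, with 25 not passing. Of all genes tested, 30.3% were called higher and 22.7% lower. The 39.1% of members called higher was above the share of all genes and the 21.9% called lower was close to it. No overlap between the groups was found for 36 members (56.2%), 21 higher and 15 lower. This was close to the 53.2% of all genes, 29.8% higher and 23.4% lower. The median log2 difference was 0.36 for the members and 0.19 for all genes. The 4 families had 11 higher and 9 lower of 29 semaphorins and plexins, 8 and 3 of 21 ephrins and Ephs, 4 and 1 of 7 Slits and Robos, and 2 and 1 of 7 netrins and Unc5 receptors. Quantile scaling, which moved the median of all genes by -0.18, gave 19 members higher and 18 lower, and Epha3, Ntn1, Robo1, Sema4d, Sema5a and Unc5d were among the calls lost. Of all calls, 51.7% were then higher, against 57.1% as reported. Whether the members called higher still exceeded the share of all genes with quantile scaling was not tested. All 39 members that were called moved in the same direction within set A and within set B, though Unc5d by only 0.07 on the log2 scale in set B. The members were called from these same libraries and set B held 1 control, so this is not independent support. With close pairs averaged, 15 members were higher and 11 lower, and Efna3, Epha3, Ntn1, Plxna2, Plxnb2, Sema4d, Sema5a, Unc5b and Unc5d were among the calls lost.

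**Figure D2:**
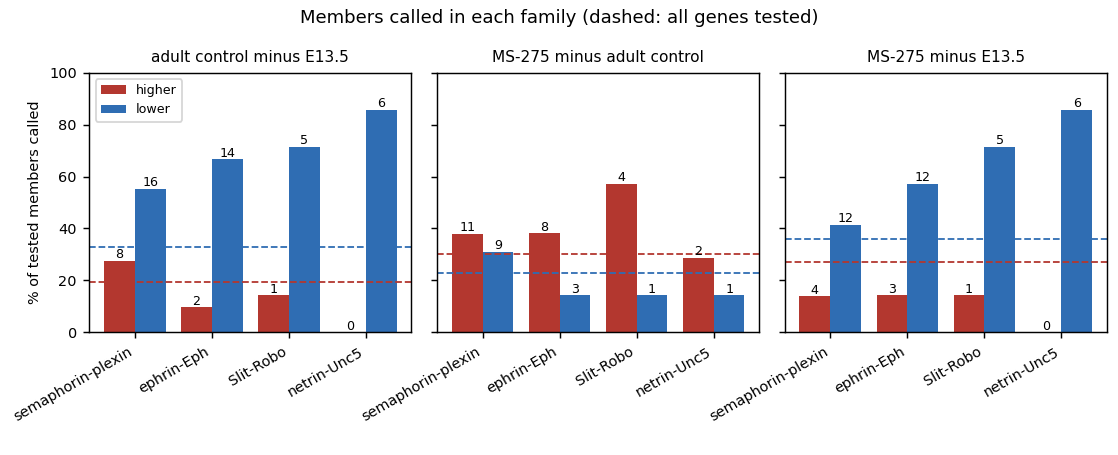
Share of the tested members of each family (in %) that was called higher (red) or lower (blue) in 3 comparisons, with the number of members above each bar; dashed lines give the share of all 15452 genes. In adult control minus E13.5 the blue bars of all 4 families stand above the blue line at 32.8%, and in MS-275 minus adult control the red bars of 3 families stand above the red line at 30.3%.

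These comparisons share the adult control libraries, so their values stand side by side below and are not independent. The log2 difference of a member is the difference of group means of log2(normalized count + 1), with its standard error (SE) from limma, and levels of single members are normalized counts in each library.

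The secreted class 3 semaphorins went in both directions. Sema3a, which repels axons and acts on endothelial migration through Nrp1, had 290.0, 172, 125 and 177 normalized counts with MS-275, against 8636, 7995 and 8333 in adult control and 2412, 493 and 458 at E13.5. It was higher in adult control than in E13.5 libraries by 3.35 ± 0.53 (adjusted p = 2.8e-04) on the log2 scale, and MS-275 against adult control gave -5.51 ± 0.50 (adjusted p = 9.3e-06). E13.5 1 was far above the other 2 E13.5 libraries, and all 4 MS-275 libraries lay below every E13.5 library, with a log2 difference of -2.16 ± 0.50 (adjusted p = 0.0029). Sema3f, a ligand of Nrp2 that restrains vessel growth, had 4243, 2138, 2312 and 2351 normalized counts with MS-275, against 12662, 13464 and 5285 in adult control and 1291, 672 and 808 at E13.5. The log2 difference was 3.44 ± 0.39 (adjusted p = 2.0e-05) for adult control minus E13.5 and -1.87 ± 0.36 (adjusted p = 0.0013) for MS-275 minus adult control, and both set A controls were far above the control of set B. Sema3g, an endothelial semaphorin, stood at a lower level, with 57.1, 43.7, 38.9 and 50.5 normalized counts with MS-275, against 136, 116 and 187 in adult control and 3.18, 10.4 and 5.73 at E13.5. It was higher in adult control than at E13.5 (log2 difference 4.40 ± 0.83, adjusted p = 9.4e-04), while MS-275 minus adult control missed the threshold (-1.59 ± 0.77, adjusted p = 0.11) although the libraries did not overlap.

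Sema3c and Sema3e took the opposite course. Sema3c, a secreted semaphorin of heart outflow and vessel patterning (chr5:17574281-17730268 of mm10), had 4289, 2453, 3891 and 2674 normalized counts with MS-275, against 102, 65.1 and 11.8 in adult control and 2145, 2195 and 2245 at E13.5. It was higher with MS-275 than in adult control by 6.19 ± 1.08 (adjusted p = 6.5e-04) on the log2 scale, in all 4 libraries, and adult control minus E13.5 gave -5.63 ± 1.15 (adjusted p = 0.0017). Every MS-275 library was above the E13.5 libraries, but that difference did not pass (0.56 ± 1.08, adjusted p = 0.67). Sema3e, the ligand of Plxnd1 (chr5:14025276-14256689), had 699, 1788, 675 and 1466 normalized counts with MS-275, against 13.9, 6.10 and 47.3 in adult control and 3184, 2641 and 2779.7 at E13.5. Its log2 difference was 5.94 ± 0.56 (adjusted p = 1.2e-05) for MS-275 minus adult control and -7.38 ± 0.60 (adjusted p = 1.5e-06) for adult control minus E13.5, with the 2 libraries of set B above those of set A after MS-275. Sema3b, another class 3 member, had no read in adult control, and 23.9, 21.9, 18.7 and 17.7 with MS-275 against 954, 1449.8 and 1381 at E13.5. With 3 reads as the floor of each library, it was at least 439-fold lower in adult control than in E13.5 libraries and at least 7.15-fold higher with MS-275 than in adult control.

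Of the membrane semaphorins, Sema4c, a ligand of Plxnb2, was the most abundant per kilobase in adult control ECs. It had 701, 648, 442 and 769 normalized counts with MS-275, against 18289, 20435 and 4613 in adult control and 477, 415 and 465 at E13.5. The log2 difference was 4.73 ± 0.46 (adjusted p = 6.3e-06) for adult control minus E13.5 and -4.26 ± 0.43 (adjusted p = 1.8e-05) for MS-275 minus adult control, and control 3 lay far below the other 2 controls. Sema6b had the same order of groups, with 102, 103, 80.3 and 105 normalized counts with MS-275, against 1903, 1982 and 1003 in adult control and 81.8, 82.4 and 85.9 at E13.5. Adult control minus E13.5 gave 4.21 ± 0.26 (adjusted p = 1.7e-07) and MS-275 minus adult control -3.99 ± 0.24 (adjusted p = 9.0e-07), while the difference between MS-275 and E13.5 did not pass (0.22 ± 0.24, adjusted p = 0.45). Sema6a, a membrane ligand of A plexins, was lower in adult control than at E13.5 and lower again with MS-275, with 127, 122, 149 and 111 normalized counts with MS-275, against 691, 706 and 789.8 in adult control and 2031, 2459.9 and 2502 at E13.5. The log2 difference was -1.67 ± 0.25 (adjusted p = 1.7e-04) for adult control minus E13.5 and -2.51 ± 0.23 (adjusted p = 1.0e-05) for MS-275 minus adult control. Sema6d, a ligand of Plxna1, had 1130.2, 1305, 918 and 1476 normalized counts with MS-275, against 3296, 3130.0 and 2860.3 in adult control and 2396, 1948 and 2009 at E13.5. It was higher in adult control by only 0.55 ± 0.17 (adjusted p = 0.021) on the log2 scale, a call that is lost without control 1, control 2, E13.5 2 or E13.5 3 in turn (adjusted p = 0.054 to 0.077), and lower with MS-275 (-1.38 ± 0.16, adjusted p = 5.1e-05).

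The other 5 semaphorins called higher with MS-275 were Sema4d, Sema4f, Sema4g, Sema5a and Sema6c. Sema4d, the ligand of Plxnb1, had 37.5, 8.74, 47.8 and 7.58 normalized counts with MS-275, against 0.867, 5.08 and 0 in adult control and 219, 332 and 387 at E13.5. The log2 difference of MS-275 minus adult control was 3.15 ± 0.80 (adjusted p = 0.0067), with set A libraries above set B, a call lost with quantile scaling and with close pairs averaged. Adult control minus E13.5 gave -7.08 ± 0.86 (adjusted p = 3.5e-05). Sema4f exceeded all other groups after MS-275, with 188, 249, 239 and 209.6 normalized counts with MS-275, against 12.1, 13.2 and 1.97 in adult control and 49.3, 52.0 and 57.3 at E13.5. It was higher with MS-275 than in adult control by 4.75 ± 0.74 (adjusted p = 3.3e-04) and higher than at E13.5 by 2.04 ± 0.74 (adjusted p = 0.032) on the log2 scale, and the second call is lost without any 1 of the E13.5 libraries or of MS-275 2, 3 and 4 (adjusted p = 0.056 to 0.080). Adult control minus E13.5 gave -2.71 ± 0.80 (adjusted p = 0.014), a call lost with quantile scaling, which turned the difference to 0.093 (adjusted p = 0.92). With MS-275, Sema4g and Sema6c did not pass against E13.5. Sema4g had 235, 756, 234 and 741 normalized counts with MS-275, against 33.8, 60.0 and 58.2 in adult control and 254, 334 and 339 at E13.5. Sema6c had 104, 181, 124 and 174 normalized counts with MS-275, against 24.3, 15.2 and 7.89 in adult control and 89.8, 126 and 113 at E13.5. MS-275 minus adult control gave log2 differences of 3.07 ± 0.51 (adjusted p = 4.9e-04) for Sema4g and 3.22 ± 0.38 (adjusted p = 5.0e-05) for Sema6c. Sema5a, a semaphorin with thrombospondin repeats, rose by 3.40 ± 1.11 (adjusted p = 0.024), a call lost without control 3, MS-275 1 or MS-275 3 in turn (adjusted p = 0.057 to 0.090), but remained below E13.5 (-4.26 ± 1.11, adjusted p = 0.0061). Sema5b had no read in any of the 9 adult libraries and 519, 965 and 934 normalized counts at E13.5, at least 281-fold lower in adult control and at least 267-fold lower with MS-275.

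**Figure D3:**
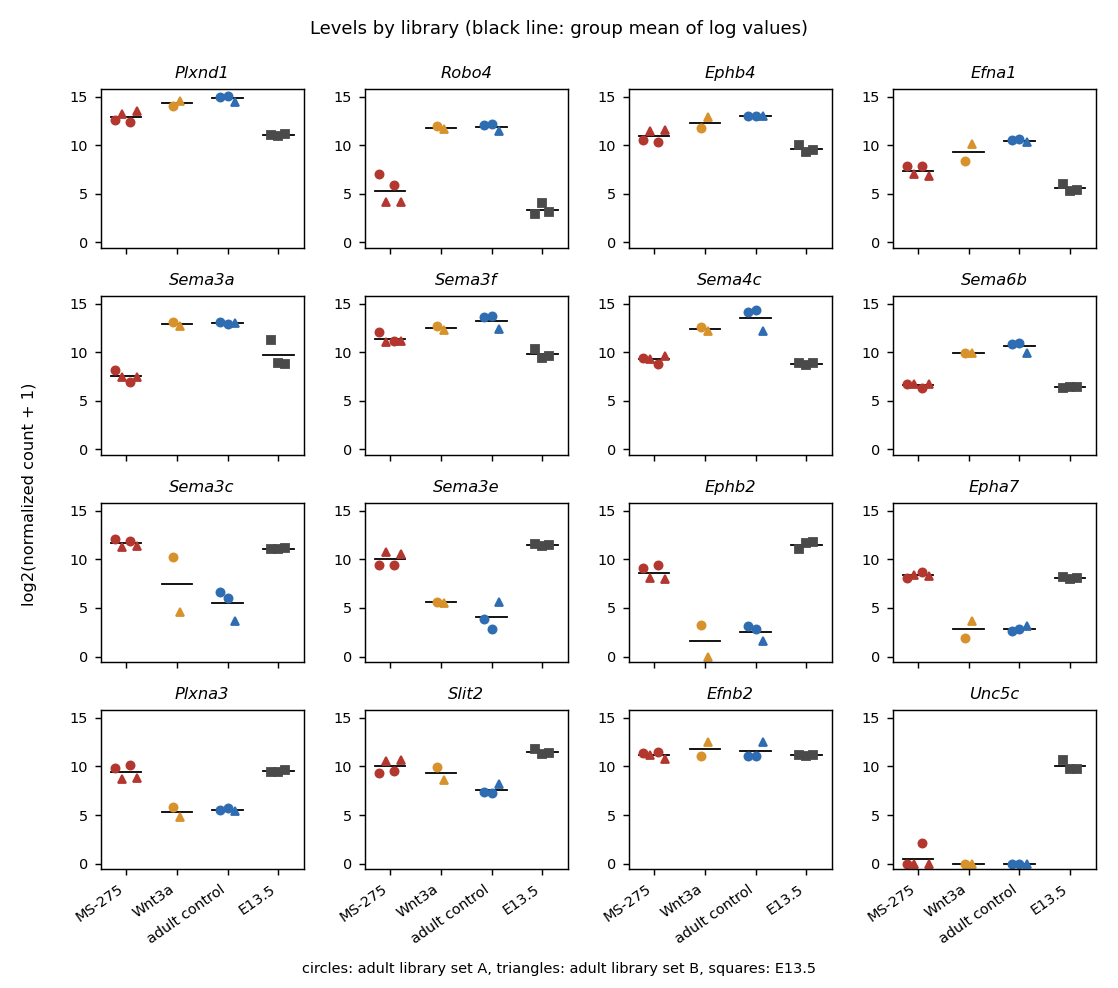
Levels of 16 members in each library as log2(normalized count + 1), with groups in the order MS-275, Wnt3a, adult control and E13.5; black lines are group means of the log values, circles are adult libraries of set A, triangles those of set B and squares E13.5 libraries. Plxnd1, Robo4, Ephb4, Efna1, Sema3a, Sema3f, Sema4c and Sema6b are highest in adult control and Wnt3a, and Sema3c, Sema3e, Ephb2, Epha7, Plxna3 and Slit2 are higher with MS-275 than in adult control.

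Among the plexins, the receptors of semaphorins, Plxnd1, the endothelial receptor of Sema3e (chr6:115954811-115995005, minus strand), had 6071, 9571, 5474 and 12165 normalized counts with MS-275, against 32298, 34295 and 22927 in adult control and 2118, 2039 and 2218 at E13.5. The log2 difference was 3.79 ± 0.29 (adjusted p = 9.6e-07) for adult control minus E13.5 and -1.90 ± 0.27 (adjusted p = 1.8e-04) for MS-275 minus adult control. After MS-275 it was still above E13.5 in every library (1.89 ± 0.27, adjusted p = 1.1e-04), and set B libraries were higher than set A. Plxna2 had 7215, 2340.0, 4524 and 2374 normalized counts with MS-275, against 16021, 16218 and 9033 in adult control and 5604, 3525 and 3745 at E13.5. It was higher in adult control than at E13.5 by 1.66 ± 0.45 (adjusted p = 0.0087) and lower with MS-275 (log2 difference -1.86 ± 0.42, adjusted p = 0.0033), and both calls are lost with close pairs averaged. Plxna3 had 888, 419, 1166 and 456 normalized counts with MS-275, against 45.1, 51.8 and 41.4 in adult control and 689, 689 and 772 at E13.5. MS-275 minus adult control gave 3.83 ± 0.37 (adjusted p = 1.5e-05) and adult control minus E13.5 -3.93 ± 0.40 (adjusted p = 8.7e-06), and MS-275 libraries lay on both sides of E13.5 (-0.10 ± 0.37, adjusted p = 0.83).

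The B plexins are receptors of class 4 semaphorins. Plxnb2 had 6046, 3344, 5852 and 3750.0 normalized counts with MS-275, against 2682, 2629 and 3208 in adult control and 17244, 14159.5 and 14772 at E13.5. It was lower in adult control than at E13.5 (log2 difference -2.44 ± 0.25, adjusted p = 8.2e-06) and rose with MS-275 by 0.70 ± 0.23 (adjusted p = 0.025), more in set A (1.16) than in set B (0.14). That rise no longer passes without control 1, control 2, MS-275 1 or MS-275 3 in turn (adjusted p = 0.061 to 0.077). Plxnb1, the receptor of Sema4d, stood at low levels in adult ECs, with 4.26, 2.19, 3.24 and 12.6 normalized counts with MS-275, against 19.1, 20.3 and 33.5 in adult control and 1628, 2024 and 2122 at E13.5. Adult control minus E13.5 gave -6.28 ± 1.23 (adjusted p = 0.0013), and MS-275 minus adult control did not pass (-2.14 ± 1.15, adjusted p = 0.14) although the libraries did not overlap. Of the other 4 plexins, Plxna1 and Plxnc1 were lower in adult control than at E13.5, Plxna1 rose with MS-275 by a log2 difference of 0.33 ± 0.12, Plxna4 fell with MS-275, and Plxnb3 passed in neither comparison.

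Of the 21 ephrins and Ephs tested, 2 were higher in adult control than at E13.5, Efna1 and Ephb4. Efna1, an A ephrin that binds Epha2, had 236, 127, 236 and 111 normalized counts with MS-275, against 1478, 1560.4 and 1269.9 in adult control and 62.0, 37.3 and 42.0 at E13.5. The log2 difference was 4.93 ± 0.45 (adjusted p = 3.7e-06) for adult control minus E13.5 and -3.09 ± 0.42 (adjusted p = 1.2e-04) for MS-275 minus adult control, while the 4 MS-275 libraries were still above all E13.5 libraries (1.84 ± 0.42, adjusted p = 0.0027). Ephb4, the venous receptor of Efnb2 (chr5:137350109-137378669), had 1511, 2843, 1307 and 3030.3 normalized counts with MS-275, against 8240.1, 8277 and 8270.3 in adult control and 1072, 648 and 741 at E13.5. It was higher in adult control than at E13.5 by 3.36 ± 0.37 (adjusted p = 1.5e-05) on the log2 scale, with the 3 controls nearly equal, and lower with MS-275 (log2 difference -2.02 ± 0.34, adjusted p = 5.4e-04). The libraries of set B kept more Ephb4 after MS-275 than those of set A. Its arterial partner Efnb2 passed in neither comparison, with 2656, 2255, 2962 and 1771 normalized counts with MS-275, against 2214, 2097 and 5939 in adult control and 2318, 2232 and 2322 at E13.5. Control 3 was far above the other controls, as Wnt3a 2 was above Wnt3a 1 (5962 against 2102). The log2 differences were 0.40 ± 0.43 (adjusted p = 0.47) for adult control minus E13.5 and -0.35 ± 0.40 (adjusted p = 0.49) for MS-275 minus adult control. The second joins opposite directions, 0.38 within set A and -1.57 within set B, where control 3 was the only control.

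Efna2, Efna3, Efnb1 and Efnb3 rose with MS-275. Efna2 had 123, 48.1, 176 and 48.0 normalized counts with MS-275, against 3.47, 4.07 and 3.94 in adult control and 95.4, 92.8 and 87.8 at E13.5. MS-275 minus adult control gave a log2 difference of 4.14 ± 0.47 (adjusted p = 3.6e-05), and the MS-275 libraries spanned the E13.5 range. Efna3 had 583, 959, 536 and 946 normalized counts with MS-275, against 119.7, 115 and 144 in adult control and 153, 179 and 179 at E13.5. It rose by 2.53 ± 0.51 (adjusted p = 0.0018) over adult control and by 2.09 ± 0.51 (adjusted p = 0.0042) over E13.5, while adult control minus E13.5 did not pass (-0.43 ± 0.55, adjusted p = 0.54). Efnb1 averaged 193 ± 68.6 normalized counts with MS-275 (SD, n = 4), 101 ± 7.93 in adult control and 1904 ± 168 at E13.5 (SD, n = 3 each). Its rise over adult control was 0.85 ± 0.30 (adjusted p = 0.034), larger in set A (1.30) than in set B (0.36). MS-275 4 (99.7) lay within the range of the controls (91.5 to 106).

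Among the Eph receptors, Ephb2 and Epha7 rose most with MS-275. Ephb2, a receptor of B ephrins in axon sorting, had 546, 267, 698 and 253 normalized counts with MS-275, against 7.81, 6.10 and 1.97 in adult control and 2188, 3369 and 3503 at E13.5. Its log2 difference was 6.14 ± 0.70 (adjusted p = 3.9e-05) for MS-275 minus adult control, and it stayed below E13.5 (-2.88 ± 0.70, adjusted p = 0.0039). Epha7 had 273, 339.9, 414 and 302 normalized counts with MS-275, against 5.20, 6.10 and 7.89 in adult control and 284, 251 and 277 at E13.5. MS-275 minus adult control gave 5.49 ± 0.39 (adjusted p = 2.3e-06), adult control minus E13.5 -5.21 ± 0.41 (adjusted p = 1.3e-06), and MS-275 minus E13.5 0.28 ± 0.39 (adjusted p = 0.55), with the lowest MS-275 library within the E13.5 range and the others above it. Ephb6, an Eph without kinase activity, had 194, 15.3, 188 and 27.8 normalized counts with MS-275, against 3.47, 2.03 and 0 in adult control and 238, 277 and 255 at E13.5. It rose over adult control (4.76 ± 0.97, adjusted p = 0.0019), and the set A libraries had far more counts than those of set B.

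Epha2, the receptor of Efna1 in angiogenesis, was among the most abundant members in all groups. It had 2603, 1506, 2124 and 1447 normalized counts with MS-275, against 4328, 4462 and 1941 in adult control and 5969.9, 8774 and 9093 at E13.5. It was lower in adult control than at E13.5 (log2 difference -1.22 ± 0.38, adjusted p = 0.02), a call lost without control 3, E13.5 2 or E13.5 3 in turn (adjusted p = 0.065 to 0.070), and MS-275 minus adult control did not pass (-0.84 ± 0.36, adjusted p = 0.069). Epha3 and Epha5, receptors of A ephrins in axon mapping, were almost unread in adult ECs. Epha3 had 8.53, 2.19, 17.8 and 0 with MS-275, 0 in all 3 adult controls and 119, 290.5 and 249 at E13.5, at least 76.5-fold lower in adult control. Its MS-275 call is lost without any 1 of the controls, MS-275 1 or MS-275 3 (adjusted p = 0.072 to 0.087). Epha5 had 0, 2.19, 0 and 2.53 normalized counts with MS-275, against 0, 0 and 1.97 in adult control and 299.6, 887 and 818 at E13.5. Ephb3 had at most 4.07 in adult control against 274 to 373 at E13.5, and Epha6 had no adult read and 3.82 to 14.3 at E13.5.

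Robo4 had the largest rise of any member in adult control against E13.5. Robo4, a Robo of endothelium that stabilizes vessels (chr9:37401897-37415115), had 135, 17.5, 58.4 and 16.4 normalized counts with MS-275, against 4309.6, 4532 and 2736 in adult control and 6.36, 15.6 and 7.63 at E13.5. The log2 difference was 8.53 ± 0.69 (adjusted p = 1.4e-06) for adult control minus E13.5 and -6.55 ± 0.64 (adjusted p = 1.5e-05) for MS-275 minus adult control, the largest fall of any member. That fall lay within the range of the 12 endothelial identity genes in the same comparison, -6.58 (Emcn) to -1.26 (Kdr), with a median of -4.20. MS-275 libraries remained above E13.5 (1.98 ± 0.64, adjusted p = 0.019), a call lost with close pairs averaged or without E13.5 1 or E13.5 3 in turn (adjusted p = 0.060 to 0.071). Robo1 and Robo2 had no read in adult control. Robo1 had 3.41, 8.74, 9.73 and 0 with MS-275 and 869, 744 and 735 at E13.5, and was at least 273-fold lower in adult control than at E13.5 and at least 1.91-fold higher with MS-275 than in adult control, a call lost without control 1, control 2, MS-275 2 or MS-275 3 in turn (adjusted p = 0.053 to 0.055). Robo2 had 23.9, 10.9, 29.2 and 2.53 with MS-275 and 524, 901 and 788 at E13.5, and was at least 257-fold lower in adult control than at E13.5 and at least 5.80-fold higher with MS-275 than in adult control. Robo3 passed in neither comparison.

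Of the Slits, the secreted ligands of Robos, Slit2 had 646, 1525, 738 and 1619 normalized counts with MS-275, against 166, 152 and 293 in adult control and 3691, 2519 and 2609 at E13.5. It was lower in adult control than at E13.5 (log2 difference -3.89 ± 0.44, adjusted p = 2.3e-05) and rose with MS-275 by 2.41 ± 0.42 (adjusted p = 6.2e-04), with set B libraries above set A. Slit1 had 47.8, 21.9, 58.4 and 30.3 normalized counts with MS-275, against 0.867, 0 and 1.97 in adult control and 63.6, 197 and 216 at E13.5. Slit3 had 0, 2.19, 1.62 and 0 normalized counts with MS-275, against 0, 0 and 1.97 in adult control and 667, 461 and 449 at E13.5. Both were lower in adult control than at E13.5, and with MS-275 Slit1 rose in all 4 libraries while Slit3 did not pass.

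No netrin and no Unc5 receptor was higher in adult control than at E13.5. Ntn1, the axon attractant, had 419.7, 580.4, 438 and 674 normalized counts with MS-275, against 1000.2, 1007 and 695 in adult control and 1058, 1810.5 and 1842 at E13.5. The log2 differences were -0.78 ± 0.30 (adjusted p = 0.049) for adult control minus E13.5 and -0.78 ± 0.28 (adjusted p = 0.037) for MS-275 minus adult control, both close to the threshold. The first call is lost without any 1 of the controls, E13.5 2 or E13.5 3 (adjusted p = 0.066 to 0.16), and the second without control 1, control 2 or any 1 of MS-275 1, 2 and 3 (0.050 to 0.12). Ntn4, a netrin of vascular basement membrane, had 301, 67.8, 200.3 and 78.3 normalized counts with MS-275, against 278, 313 and 270.2 in adult control and 1711, 1950.1 and 1851 at E13.5. It was lower in adult control than at E13.5 (-2.68 ± 0.63, adjusted p = 0.0039), and 3 of 4 MS-275 libraries were below the controls without passing the test (-1.09 ± 0.59, adjusted p = 0.14). Unc5b, the vascular netrin receptor, had 1604, 2505, 1975 and 2951 normalized counts with MS-275, against 1142, 1152 and 1562 in adult control and 2633, 1784 and 1904 at E13.5. It was higher with MS-275 by 0.79 ± 0.26 (adjusted p = 0.026) on the log2 scale, a call lost without control 1, control 2, MS-275 2 or MS-275 4 in turn (adjusted p = 0.063 to 0.089), and adult control minus E13.5 just missed the threshold (-0.71 ± 0.28, adjusted p = 0.055).

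Unc5c, a repulsive netrin receptor of axons (chr3:141465216-141834924), had no read in adult control or Wnt3a libraries. It had 0, 0, 3.24 and 0 normalized counts with MS-275 and 1677, 848 and 844 at E13.5, at least 391-fold lower in adult control than at E13.5. Unc5d had 27.3, 8.74, 40.5 and 0 normalized counts with MS-275, against 0, 0 and 1.97 in adult control and 339, 652 and 705 at E13.5. Its rise with MS-275 was seen in 3 of 4 libraries and is lost without control 1, control 2 or any 1 of MS-275 1, 2 and 3 (adjusted p = 0.082 to 0.14). Ntn3 had 23.0, 20.8, 21.9 and 7.58 normalized counts with MS-275, against 18.2, 18.3 and 27.6 in adult control and 296, 217 and 219 at E13.5.

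**Figure D4:**
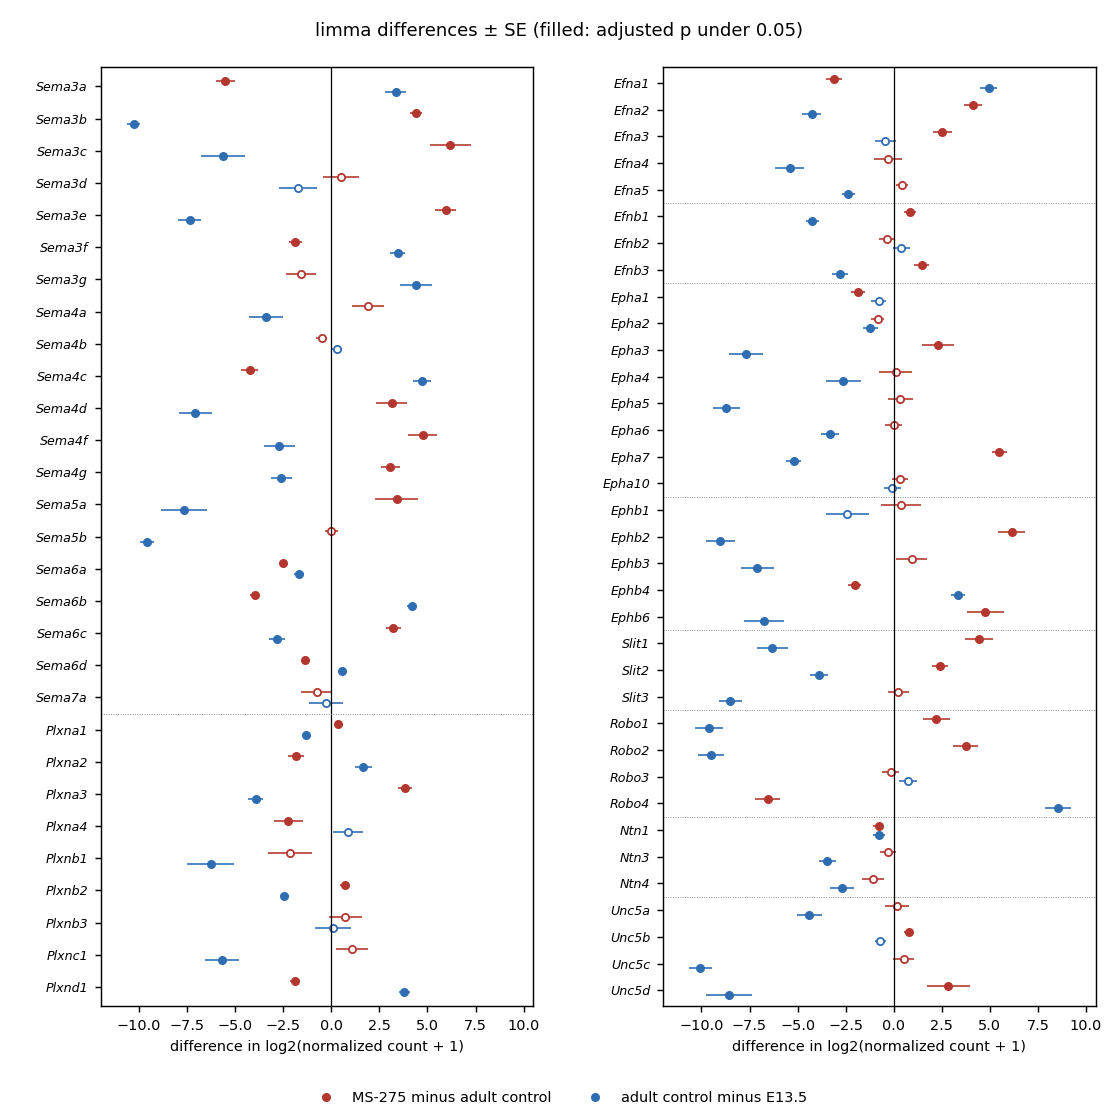
limma log2 differences with SE (horizontal lines) of the 64 tested members, red for MS-275 minus adult control and blue for adult control minus E13.5, filled where the adjusted p was under 0.05. Robo4 lies furthest right in blue (8.53) and furthest left in red (-6.55); for members without a read in adult control (such as Unc5c and Sema5b) the plotted value depends on the count of 1 added before the logarithm.

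Between MS-275 and E13.5 libraries, 8 members were higher (12.5%) and 35 lower (54.7%) with MS-275, and 21 did not pass. Of all genes, 27.2% were called higher and 36.1% lower. The share of members called lower thus lay above that of all genes, and the share called higher below it. The median log2 difference was -1.54 for the members and -0.14 for all genes. Libraries did not overlap for 46 members (71.9%), close to the 69.9% of all genes (30.5% higher and 39.3% lower). The 8 members above E13.5 were Efna1, Efna3, Ephb4, Plxnd1, Robo4, Sema3f, Sema3g and Sema4f. Quantile scaling, which moved the median of all genes by 0.35, gave 15 higher and 33 lower, and 56.5% of all calls were then higher, against 43.0% as reported. With close pairs averaged 2 members were higher (Plxnd1 and Sema3f) and 28 lower, and the lower calls of Ephb2, Sema3e, Sema5a, Slit1 and Slit2 were among those lost.

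Wnt3a treatment, which asks what added ligand does to these genes in adult ECs, gave 0 members called of 64, also with close pairs averaged, and 0.0% of all 15452 genes passed (limma). At an unadjusted p under 0.05 there were 5 members and 8.48% of all genes. edgeR called 0 genes, and DESeq2 called 41 of 13847 (0.296%) with no member among them. The libraries did not overlap for 9 members (14.1%), 6 higher and 3 lower. This was close to the 15.9% of all genes, 7.69% higher and 8.21% lower. The differences were larger in set A than in set B. Over all 64 members, 26 differed by more than 1 on the log2 scale between Wnt3a 1 and the mean of controls 1 and 2, and 13 between Wnt3a 2 and control 3, with median absolute differences of 0.82 in set A and 0.20 in set B. Among the 30 members with a mean of at least 50 normalized counts in either group, 12 differed by that much in set A and 0 in set B. The median absolute difference of these members was 0.91 in set A and 0.14 in set B. With 1 Wnt3a library in each set, an effect of Wnt3a that is larger in set A and the spread between single libraries cannot be told apart.

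Single members showed the gap between both Wnt3a libraries. Sema3c had 1259 and 23.9 normalized counts in Wnt3a libraries, against 102, 65.1 and 11.8 in adult controls. Slit2 had 995 and 390.4 with Wnt3a, against 166, 152 and 293 in controls, the only Slit whose Wnt3a libraries were both above all controls. Ntn4 had 1624 and 306 with Wnt3a, against 278, 313 and 270.2 in controls. In the other direction, Efna1 had 332 and 1154 with Wnt3a, against 1478, 1560.4 and 1269.9 in controls, below all of them in both libraries. Ephb4 had 3533 and 7534, against 8240.1, 8277 and 8270.3 in controls, also below all of them. Epha4 followed the sets and not the treatment, with 236 and 1997 in Wnt3a libraries against 198, 167 and 2062 in controls. Sema3b, without a read in controls, had 4.17 and 5.97 with Wnt3a, at least 1.77-fold higher with controls set to 3 reads. The value in Wnt3a 1 is itself that of 3 reads, so this bound rests on few reads. Leaving out control 3 gave 4 members higher and 2 lower with Wnt3a, when 6.18% of all genes were called higher and 3.25% lower. Leaving out Wnt3a 2 gave 2 higher and 4 lower, when 0.791% of all genes were called higher and 0.746% lower, and the lone Wnt3a library was then assumed to vary like the other groups.

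**Figure D5:**
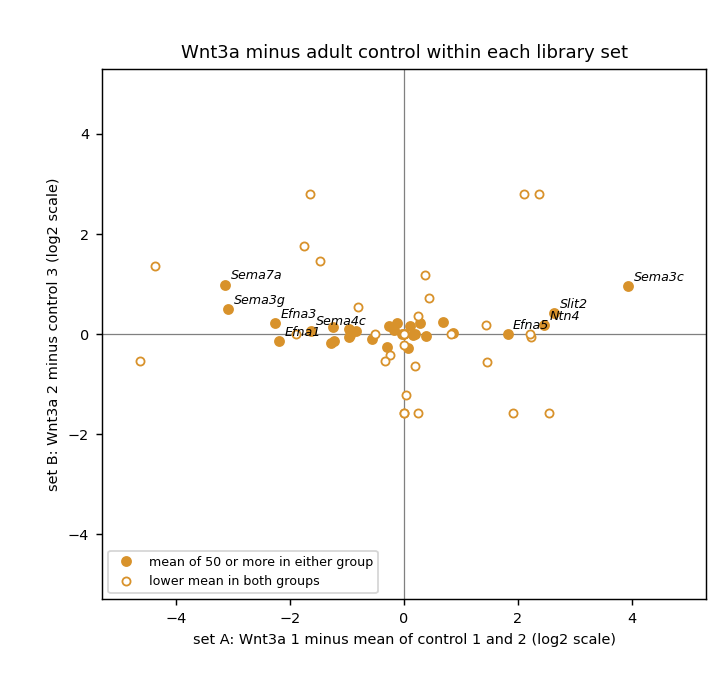
Wnt3a minus adult control of the 64 tested members within each library set, as differences of log2(normalized count + 1), set A on the horizontal and set B on the vertical axis; filled circles are members with a mean of at least 50 in either group. Filled circles spread from Sema7a (-3.14) to Sema3c (3.93) along the horizontal axis and stay within 1 of 0 on the vertical axis.

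The partners of these families were counted from lists of coreceptors and cytoplasmic effectors, to be read beside the shares of all genes: 19.5% called higher and 32.8% lower in adult control than at E13.5, and 30.3% higher and 22.7% lower with MS-275 than in adult control. The lists are small, and how far each lay from these shares was not tested. Of 11 semaphorin coreceptors and partners, 1 was higher and 6 were lower in adult control than at E13.5, and 3 were higher and 3 lower with MS-275 than in adult control. The 1 higher in adult control was Nrp2, the coreceptor of Sema3f, which averaged 2131 ± 713 normalized counts with MS-275 (SD, n = 4), 12666 ± 1368 in adult control and 1240 ± 238 at E13.5 (SD, n = 3 each). Of 18 netrin and Slit coreceptors and modulators, 2 were higher and 12 lower in adult control, and 8 were higher and 3 lower with MS-275. Among them Neo1, a netrin receptor, averaged 4963 ± 588 with MS-275, 23513 ± 1555 in adult control and 4717 ± 175 at E13.5. Dcc, the axonal netrin receptor, had no read in adult control and averaged 173 normalized counts at E13.5.

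All 5 netrin-G ligands and partners were lower in adult control than at E13.5, and 2 rose with MS-275. Beside the same shares of all genes, of 21 cytoplasmic effectors of plexins 3 were higher and 9 lower in adult control, and 9 were higher and 5 lower with MS-275. Fes, a kinase of semaphorin signaling through A plexins, averaged 38.2 with MS-275, 1990 in adult control and 123 at E13.5, and Dpysl5, a collapsin response mediator protein of neurons, averaged 239 with MS-275, 0.66 in adult control and 783 at E13.5. Of 22 effectors of Ephs and ephrins, 5 were higher and 11 lower in adult control, and 9 were higher and 9 lower with MS-275. Of 19 effectors of Robos and netrin receptors, 6 were higher and 8 lower in adult control, and 3 were higher and 8 lower with MS-275.

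The promoters of 4 vascular members are printed because they went in opposite directions, Robo4 and Plxnd1 high in adult control and lower with MS-275, Sema3e and Sema3c near 0 or low in adult control and higher with MS-275. Each runs 5′ to 3′ along its gene from 250 bases before to 50 after the RefSeq start (GRCm38.p6, the assembly of mm10), with the ETS letters AGGAAG or CGGAAG of either strand in capitals. ETS factors such as Erg and Fli1 are regulators of endothelial genes.
Robo4 (chr9:37401722-37402021, plus strand): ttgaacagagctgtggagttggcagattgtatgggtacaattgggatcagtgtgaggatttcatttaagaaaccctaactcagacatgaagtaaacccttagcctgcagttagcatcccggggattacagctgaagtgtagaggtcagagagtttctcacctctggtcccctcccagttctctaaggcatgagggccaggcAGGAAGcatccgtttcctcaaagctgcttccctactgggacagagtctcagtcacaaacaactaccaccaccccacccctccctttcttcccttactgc
Plxnd1 (chr6:115994956-115995255, minus strand): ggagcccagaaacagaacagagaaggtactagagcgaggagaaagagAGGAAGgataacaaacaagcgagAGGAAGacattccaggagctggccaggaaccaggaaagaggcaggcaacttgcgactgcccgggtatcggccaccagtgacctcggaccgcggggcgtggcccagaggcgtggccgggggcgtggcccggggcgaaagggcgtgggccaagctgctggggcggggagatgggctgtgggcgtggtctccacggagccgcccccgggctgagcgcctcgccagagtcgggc
Sema3e (chr5:14025026-14025325, plus strand): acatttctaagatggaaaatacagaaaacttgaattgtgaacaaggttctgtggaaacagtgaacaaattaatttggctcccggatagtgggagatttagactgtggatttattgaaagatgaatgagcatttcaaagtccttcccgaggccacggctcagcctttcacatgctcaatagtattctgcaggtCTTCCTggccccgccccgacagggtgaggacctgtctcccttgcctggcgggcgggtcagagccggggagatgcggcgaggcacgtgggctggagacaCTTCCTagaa
Sema3c (chr5:17574566-17574865, plus strand): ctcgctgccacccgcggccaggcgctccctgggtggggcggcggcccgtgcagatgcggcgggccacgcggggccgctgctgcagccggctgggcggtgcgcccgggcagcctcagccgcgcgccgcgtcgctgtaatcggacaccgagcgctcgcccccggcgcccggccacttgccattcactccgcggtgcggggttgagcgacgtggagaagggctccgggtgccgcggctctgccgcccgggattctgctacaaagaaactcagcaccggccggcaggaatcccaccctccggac
Robo4 held the letters 1 time, Plxnd1 2 times, Sema3e 2 times and Sema3c 0 times. The ratio of observed to expected CpG was 0.11 in Robo4, 0.72 in Plxnd1, 0.58 in Sema3e and 0.98 in Sema3c, and GC made up 50.3% of the bases in Robo4, 67.0% in Plxnd1, 50.7% in Sema3e and 75.7% in Sema3c. RefSeq windows were found for 57 of the 66 members (73 windows) and for 16526 genes in all (20171 windows). The ETS letters were in 45.2% of member windows and 48.7% of all windows, and the TCF/LEF letters CTTTGA or CTTTGT of either strand in 19.2% and 28.0%. The median CpG ratio was 0.66 for member windows and 0.59 for all. Members lower with MS-275 had the ETS letters in 7 of 14 windows, members higher with MS-275 in 10 of 28, and members that did not pass in 16 of 29, the highest share. The matching of letters is a description, with no test of binding.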

How the data were processed

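mRNA-seq of 12 libraries of cultured cortical ECs was analysed: 4 with MS-275, 2 with Wnt3a, 3 adult controls and 3 at E13.5, grouped by the labels (their titles spell MS-275 as MS-257). The methods name FastQC, STAR (mm10) and counting in protein-coding genes by scripts of the authors, while the submitters' processing notes also name cutadapt and featureCounts, so the counter is uncertain. The authors divided these counts by DESeq2 size factors. No versions were named, and whether counting used strand was not stated. Exons of Ntn5 (23.4% of its exonic length), Epha1 (6.01%), Ntn3 (1.74%), Unc5a (0.82%) and Ephb4 (0.71%) overlap those of a neighbouring gene. The deposited signal values are these normalized counts, and 100.0% of them were whole reads (within 0.01) times 1 factor for each library. Of 21638 rows, 26 whose names had become dates (0.21% to 0.281% of reads) and 1 with a missing value were left out.

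For log2(normalized count + 1), limma 3.58.1 (R 4.3.3; trend, robust, all 12 libraries, group as the only term) gave the differences. A gene entered if 2 or more libraries had a value of 10 or higher, and p-values were adjusted by Benjamini-Hochberg over the 15452 genes of each comparison (threshold 0.05). edgeR 4.0.16 and DESeq2 1.42.0 on the recovered reads were alternatives, as were other scalings, filters, pseudocounts, a replicate block, averaged close pairs and leaving out each library. The code was tested on simulated data. The members and lists were chosen with earlier results of these data known. Members named are those with a known vascular role and, for each family and comparison, up to 4 higher and 4 lower with the largest difference among those called whose libraries did not overlap and whose higher group averaged 100 or more, and any member with opposite calls. Of coreceptors and effectors, up to 4 in each list with the smallest adjusted p were eligible. Other members named were chosen after their values were seen, as were the library sets. Fold bounds set a library without a read to 3 reads. Lengths and positions are from GENCODE M21 on mm10, an earlier release than the one the authors counted on, and promoters from RefSeq.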

Additional observations from a re-analysis of the deposited data

Results flagged for a closer look

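Among 57 members examined in the 4 MS-275 libraries, 3 had a library far from the others, with a gap to the nearest library, divided by the range, above Dixon's 95% critical value for 4 values. Chance gives this in about 1 of 20 groups. Ntn3 had 23.0, 20.8, 21.9 and 7.58 normalized counts, and the lowest library, MS-275 4, gave a ratio of 0.854. Sema3f had 4243, 2138, 2312 and 2351, and the highest library, MS-275 1, gave 0.899. Sema6b had 102, 103, 80.3 and 105, and the lowest library, MS-275 3, gave 0.900. Without MS-275 1, MS-275 3 or MS-275 4 in turn, the calls of Sema3f and Sema6b against adult control were kept.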

How the results depend on the processing

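With close pairs averaged, 15 members were higher with MS-275 than in adult control and 2 were higher with MS-275 than at E13.5, which quantile scaling made 15. The number of libraries is smaller by construction with pairs averaged, and the cause was not tested for quantile scaling. Sema4f, lower in adult control than at E13.5, turned to a log2 difference of 0.093 with quantile scaling (adjusted p = 0.92), and the cause was not tested. Leaving out each library in turn gave 10 to 11 members higher and 37 to 40 lower in adult control than at E13.5, 18 to 23 higher and 12 to 16 lower with MS-275 than in adult control, 6 to 8 higher and 30 to 34 lower with MS-275 than at E13.5, and 0 to 4 higher and 0 to 4 lower with Wnt3a. With the replicate block, 11 were higher and 41 lower in adult control than at E13.5, 22 and 14 with MS-275 against adult control, 7 and 33 with MS-275 against E13.5, and 0 and 0 with Wnt3a. The replicate numbers did not pair the libraries: correlations of deviations for 15 pairs of libraries with the same number ran from -0.44 to 0.44 (median 0.02), and the block is reported only here. A block for the library set, chosen after seeing the data, gave 23 higher and 15 lower with MS-275 than in adult control. For comparisons with MS-275 or E13.5 the share of all genes called was taken only in the fit reported above. The counts of members under the alternatives have no such share beside them. Members with few adult reads (Epha3, Robo1, Unc5d) lost their MS-275 call under several alternatives, and depth limits what can be said of them. A fold bound assumes 3 reads in each library without one and covers counting error only.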
